A study of Mus musculus with 12 samples.

Results

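The megabase organisation of the autosomes was compared between mouse embryonic stem cells (ESC) and neuronal committed cells (NCC) in the Hi-C libraries, which are 4 of the 12 samples of the series. All cells were of the E14Tg2A line. The ESC were kept on gelatin in medium with 100 U/mL leukemia inhibitory factor (LIF), and the NCC were the same cells after 48 hours in medium without LIF and with 1 μM retinoic acid. Each cell type had 2 biological replicates, which the deposited table merged into 1 library, so no value below carries a replicate error. FGFR1 and CTCF HiChIP libraries, in which contacts were enriched with an antibody, were made from the same cell types and are used here only as other libraries in which to look at the bins found by Hi-C. The units described are windows of 500 kb (bins) on chromosomes 1 to 19 of mm10. Of 4935 bins, 3976 had enough contacts in both libraries to be placed, and the other 959 (19.4%) were AT-rich and gene-poor, with a median GC content of 37.3% and 1524 of 20807 protein-coding gene starts.

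Hi-C joins pieces of DNA that lie near each other in the fixed nucleus, so the number of read pairs between a pair of bins is a measure of how often they meet. Over megabases, chromosomes fold into a checkerboard of 2 kinds of chromatin, in which A bins (gene-rich, open and mostly early replicating) meet other A bins and B bins (gene-poor, compact and often at the nuclear lamina) meet other B bins. A gene that moves from one kind to the other during differentiation changes the neighbourhood in which it is transcribed.

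The ESC library held 20643821 read pairs on autosomes and the NCC library 21142644, so the depth of the 2 libraries was close. These tables hold fewer read pairs than the valid pairs described in the study's methods. Of these pairs, 10.0% in ESC and 11.5% in NCC joined different chromosomes (trans). At 50 Mb or more within a chromosome the ESC library held 226835 pairs and the NCC library 358857. The cells cannot be checked against markers here, since Hi-C measures no RNA or protein.

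The side of each bin was read from the first eigenvector of the correlation matrix of its contacts, which is scaled here to a standard deviation (SD) of 1 per chromosome and signed so that bins with more gene starts are positive (side A). The first component was the one that followed gene starts on 19 of 19 chromosomes in both libraries. The read pairs of each library were also divided at random into 2 subsets of about equal size, and the same map was made from each, to show how far counting alone moves a bin. Such subsets hold the same replicates and therefore say nothing of the spread between cultures.

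The side of the genome's bins was nearly the same in both cell types. Side A held 1786 of 3976 bins in ESC and 1852 in NCC. The eigenvectors of ESC and NCC had a Pearson r of 0.927 over 3976 bins, as a description of 2 libraries whose bins share base composition and gene density. The random subsets of the ESC library had an r of 0.911 with each other, and those of the NCC library 0.932. At that lower depth a subset of ESC and a subset of NCC had an r between 0.889 and 0.894. The difference between cell types was therefore only a little larger than counting noise: 350 bins (8.80%) had opposite signs in the whole libraries, 429 in the ESC subsets, 330 in the NCC subsets and 455 to 496 between a subset of one cell type and a subset of the other.

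**Figure D1:**
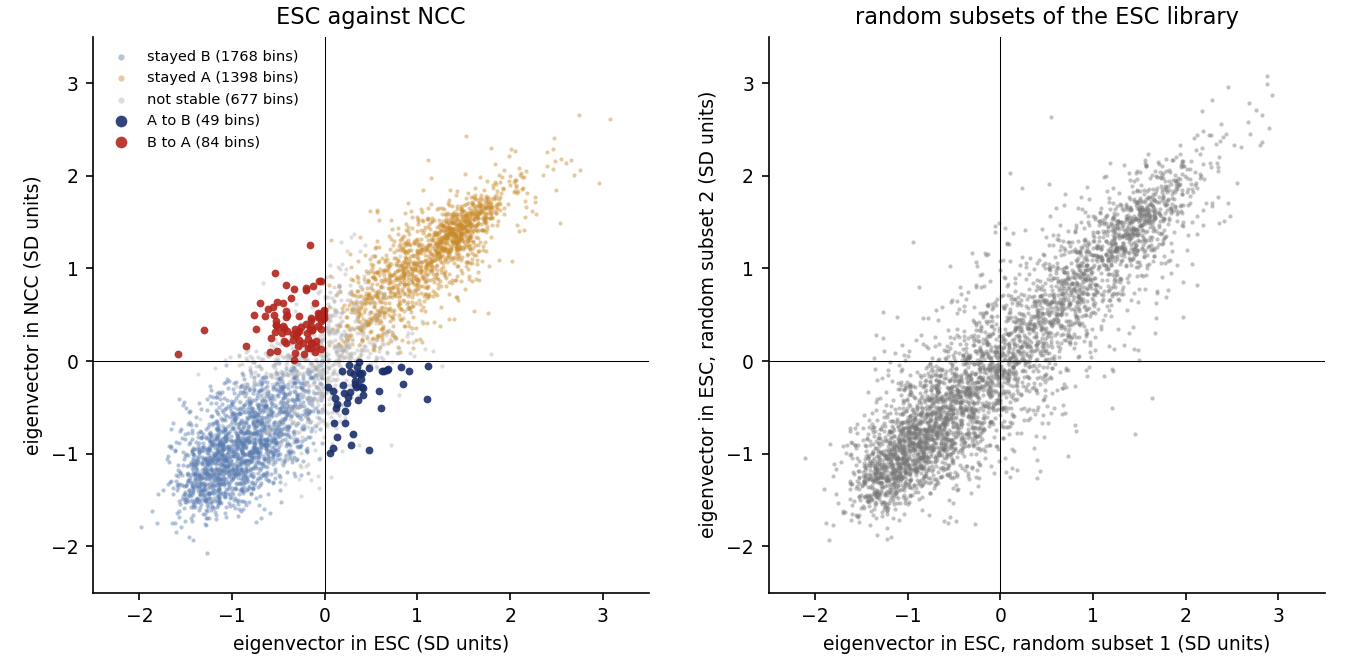
Left, the eigenvector (SD units) of each of 3976 bins in ESC (x axis) against NCC (y axis), coloured by class; right, the same for the random subsets of the ESC library. The 49 bins that went from side A to side B and the 84 that went from B to A lie near the crossing of the zero lines, and the scatter of the ESC subsets, at lower depth (r of 0.911), is no narrower than that between the cell types (r of 0.927).

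A bin was called as changing side only where its sign differed between ESC and NCC in the whole libraries and in every subset. By this rule 49 bins (1.23% of 3976) went from side A in ESC to side B in NCC, and 84 bins (2.11%) went from B to A. Another 1398 bins stayed on A, 1768 stayed on B, and 677 had no stable sign. The calls depended on how the reads happened to be divided: with 5 other random divisions 39 to 51 bins went from A to B and 64 to 76 from B to A, and 8 of the 49 and 21 of the 84 bins were called in each of the 5. Processing moved the calls further: without balancing 9 of the 49 and 24 of the 84 were called again, with 1 Mb bins 7 and 17, and 0 bins were called in all divisions and settings. The sign of the eigenvector change was kept in 133 of the 133 bins without the anchors of highest strength. The same number kept it with NCC thinned to the ESC depth, which removed few read pairs, so that setting could hardly change it. The sign was kept in 131 with the eigenvector of observed over expected minus 1 and in 127 without balancing. With 1 Mb bins it was kept in 116, and with scores of 2 or more only in 70.

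The side-changing bins were borderline bins. Their median eigenvector was 0.34 in ESC and -0.28 in NCC for A to B, and -0.28 and 0.38 for B to A. The medians were 1.19 in both for bins that stayed on A, and -0.91 and -0.93 for bins that stayed on B. They were also mostly single: the longest run was 1 bin for A to B and 3 bins for B to A. Beside a bin of the other side in ESC lay 34 of 49 (69.4%) and 58 of 84 (69.0%), against 34.8% of all placed bins. The 677 bins with no stable sign shared much of this: 59.5% lay beside the other side and 377 were single. The B to A bins held 250 gene starts and 16 of them held none, while the A to B bins held 252 and 4 of them held none. Median repeat content was 32.4% in A to B bins and 25.9% in B to A bins. Over all 3976 bins the eigenvector change had a Spearman rho of -0.18 with repeat content. With the density of GATC, the sequence at which anchors began, the rho was -0.20. The part of base sequence in the side changes was not tested.

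Among bins that went from B to A, 10 were described by rule, those with the largest eigenvector change whose trans contacts moved the same way. Zfp703, a zinc finger transcriptional repressor, is the one gene with its start in the bin on chromosome 8 from 26500001 to 27000000. Its eigenvector was -0.41 in ESC (subsets -0.26 and -0.66) and 0.82 in NCC (subsets 0.45 and 0.90). The 3 ESC values lay below 0 and the 3 NCC values above it, with no overlap, as the rule for the class requires. Fbn2, which encodes the microfibril protein fibrillin-2, starts on chromosome 18 from 58000001 to 58500000, where the eigenvector went from -0.77 (subsets -1.10 and -0.30) to 0.49 (subsets 0.51 and 0.35). Gas1 encodes a cell-surface co-receptor for Sonic hedgehog, and its bin, on chromosome 13 from 60000001 to 60500000, went from -0.51 (subsets -0.37 and -0.79) to 0.64 (subsets 0.74 and 0.64). The bins of Zfp703, Fbn2 and Gas1 were called in all 5 other random divisions.

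The bin of Tgfb2, a transforming growth factor beta ligand, with Rrp15 and D1Pas1, lies on chromosome 1 from 186500001 to 187000000. It went from -0.61 (subsets -0.67 and -0.44) to 0.56 (subsets 0.99 and 0.092). The bin of Nedd9, Sycp2l, Mak, Elovl2 and Smim13 on chromosome 13 from 41000001 to 41500000 went from -0.16 (subsets -0.66 and -0.21) to 1.25 (subsets 0.73 and 1.36), the highest value reached by a bin of this class. The bin of Slc25a21, Mipol1 and Prps1l3 on chromosome 12 from 57000001 to 57500000 went from -0.64 to 0.48. The remaining 4 of the 10, on chromosomes 8, 13, 16 and 18, hold no protein-coding gene start. The one on chromosome 16, from 76500001 to 77000000, had the largest change of the 10, from -1.31 to 0.34, and lies next to the bin of Nrip1. All 5 other random divisions called the bins of Tgfb2 and Slc25a21, and the bins without a gene start on chromosomes 8 and 18. The one on chromosome 13 was called in 4, the one on chromosome 16 in 3 and the Nedd9 bin in 2.

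Of the pluripotency, retinoic acid response, neural induction, and mesoderm and endoderm lists, 3 genes lay in side-changing bins. Gata6, a transcription factor of the primitive endoderm, lies on chromosome 18 from 11000001 to 11500000 in a bin that went from -0.066 (subsets -0.095 and -0.15) to 0.47 (subsets 0.71 and 0.096), so the ESC value was close to 0. Sox21, an HMG-box factor of neural progenitors, lies on chromosome 14 from 118000001 to 118500000 in a bin that went from -0.45 (subsets -0.69 and -0.36) to 0.38 (subsets 0.045 and 0.19). Ncam1, the neural cell adhesion molecule, lay in a bin that went the other way, on chromosome 9 from 49500001 to 50000000, from 0.41 (subsets 0.43 and 0.093) to -0.13 (subsets -0.42 and -0.025). The subset values nearest to 0 in these bins show how little separates the 2 sides there. Of the 5 other random divisions, 2 called the Gata6 bin, 3 the Sox21 bin and 4 the Ncam1 bin.

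Of the 10 described bins that went from A to B, 2 hold no protein-coding gene start, among them the one with the largest change, on chromosome 16 from 9000001 to 9500000 (1.10 in ESC, subsets 0.94 and 0.99, and -0.41 in NCC, subsets -0.36 and -0.51). Tle4, a Groucho-family corepressor, is the one gene of a bin on chromosome 19 from 14500001 to 15000000 that went from 0.21 (subsets 0.23 and 0.087) to -0.67 (subsets -0.77 and -0.55). The bin of Gadd45a, a stress-induced growth arrest gene, with Il12rb2, Il23r and Serbp1, on chromosome 6 from 67000001 to 67500000, went from 0.59 (subsets 0.82 and 0.26) to -0.32 (subsets -0.40 and -0.42). In ESC it stood as a lone A bin between B bins. Epsti1 and Dnajc15 share a bin on chromosome 14 from 77500001 to 78000000 that went from 0.68 (subsets 0.75 and 0.63) to -0.089 (subsets -0.21 and -0.20). The other 5 hold Sp100, Sp140, Cab39 and Gpr55 with A630001G21Rik (chromosome 1), Dner, a Notch ligand, with Trip12, Fbxo36 and Slc16a14 (chromosome 1), Lrfn2, a synaptic adhesion protein (chromosome 17), Myo5b, Mapk4, Cfap53, Mbd1 and Ska1 (chromosome 18), and Cox7c, a cytochrome c oxidase subunit (chromosome 13). All 5 other random divisions called the bins of Gadd45a and Cox7c and the one on chromosome 16. The Sp100 and Lrfn2 bins were called in 4, the Epsti1 bin in 3 and the Dner and Myo5b bins in 2. The Tle4 bin and the bin without a gene start on chromosome 3 were called in 0.

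**Figure D2:**
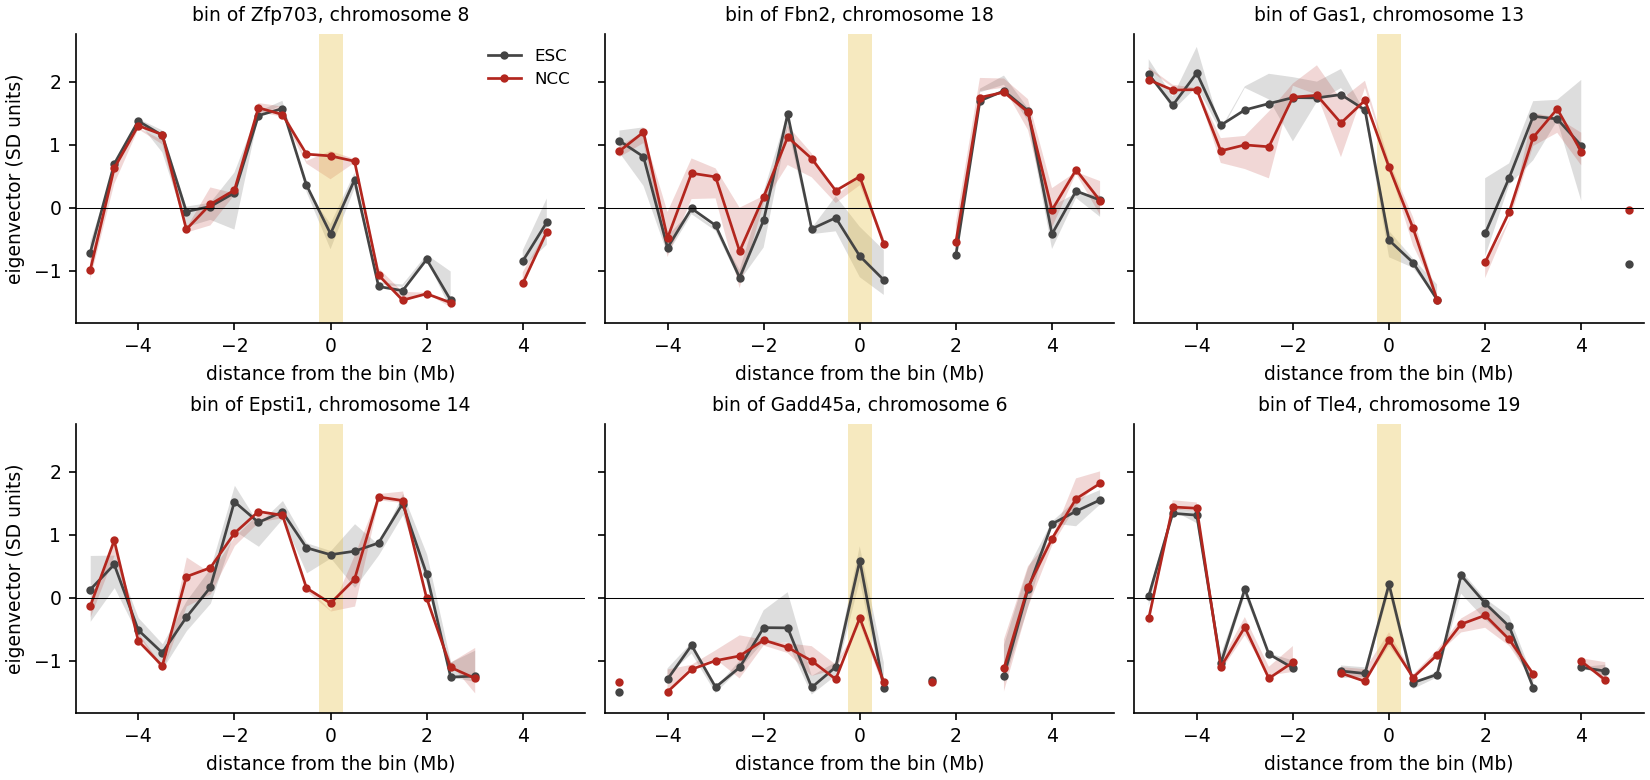
Eigenvector (SD units, y axis) of 500 kb bins within 5 Mb of 6 side-changing bins (x axis, distance in Mb) in ESC (grey) and NCC (red); the shaded bands span the 2 random subsets, the yellow stripe is the bin and gaps are bins that could not be placed. In ESC the bins of Zfp703 and Gas1 lie beside an A bin, and in NCC they lie above 0 (0.82 and 0.64). Those of Gadd45a and Tle4 are single peaks that lie below 0 in NCC (-0.32 and -0.67). The Tle4 bin was called in 0 and the Epsti1 bin in 3 of 5 other random divisions, the other 4 bins in all 5.

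Trans read pairs were not used for the eigenvector, so they are other read pairs of the same libraries. For each bin the trans A share was counted, which is the percentage of its trans pairs that end in bins that stayed on A, of those that end in bins that stayed on either side. A bin had a median of 654 such pairs in ESC and 788 in NCC. The share tracked the eigenvector, with a Spearman rho of 0.883 in ESC and 0.909 in NCC over 3976 bins, as a description. ESC and NCC were compared with Fisher's exact test (two-sided) and Benjamini-Hochberg adjustment over all 3976 bins, a test of the pooled libraries and not of the conditions. The share was higher in NCC in 56 bins (1.41%) and lower in 19 (0.478%), and 556 bins had an unadjusted p below 0.05. The same test called 1 bin between the subsets of ESC and 0 between those of NCC, where 187 and 184 bins had an unadjusted p below 0.05. These controls have less depth than the whole libraries. At matched depth, the first subsets of ESC and NCC gave 6 bins higher and 3 lower (390 at an unadjusted p below 0.05), and the second subsets 0 and 0 (378).

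Bins that had gone from B to A gained trans contacts with A. Their pooled share was 66.4% in ESC (95% Wilson interval 66.02 to 66.77, 61554 pairs) and 69.6% in NCC (69.2 to 69.9, 81951 pairs). The share was higher in NCC in 71 of the 84 bins, against 56.2% of all placed bins, and 12 of the 84 passed the test. This number was 7 when shares were measured against the median change of all bins, and 7 with partner bins taken from the ESC map alone, a setting in which 35 of all bins were higher and 33 lower. For bins that had gone from A to B the pooled share was 67.6% in ESC (67.2 to 68.1, 34737 pairs) and 66.8% in NCC (66.3 to 67.3, 37061 pairs), intervals that overlap. It was lower in 29 of the 49, against 43.8% of all placed bins, and 0 of the 49 passed Fisher's exact test with adjustment. Bins that stayed also moved: the median change was -0.61 percentage points where bins stayed on A and 1.75 where they stayed on B. The share was lower in 868 of the 1398 bins that stayed on A, so a fall was no more frequent in A to B bins. It was higher in 1184 of the 1768 bins that stayed on B. Their pooled share went from 59.0% to 61.0%, and that of bins that stayed on A from 78.1% to 77.4%. These intervals cover counting error only.

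**Figure D3:**
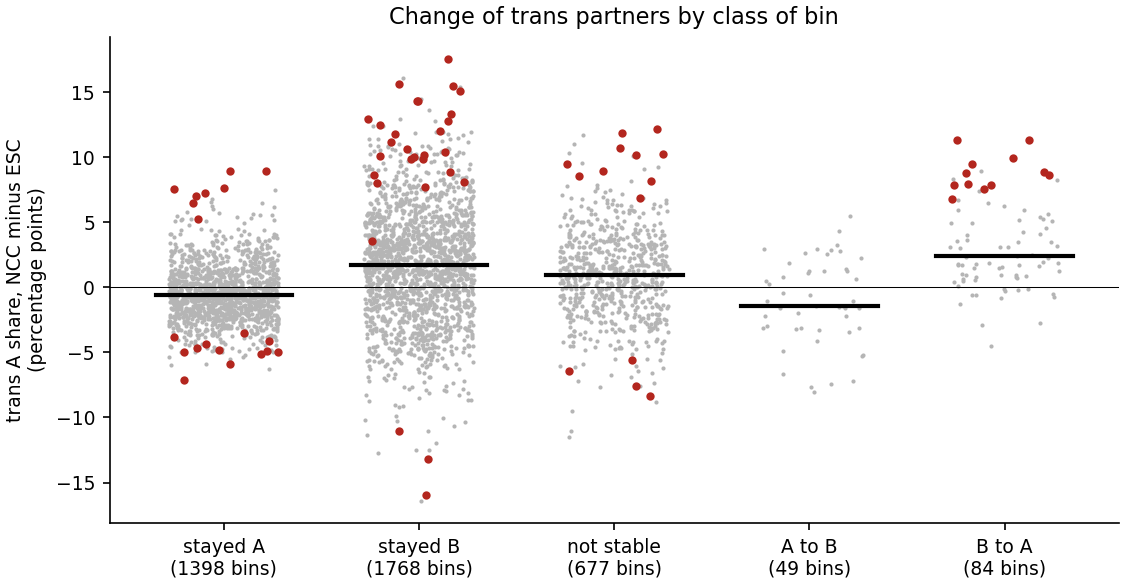
Change of the trans A share from ESC to NCC in percentage points (y axis) for each bin by class (x axis); black bars are medians and red points are the bins that passed Fisher's exact test after adjustment over 3976 bins. The median is highest in the 84 B to A bins (2.44) and lowest in the 49 A to B bins (-1.43). Of the 56 bins called higher 26 stayed on B, a class that makes up 44.5% of placed bins.

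The bin of Prickle1, a planar cell polarity gene, had the second smallest adjusted p of the 56. On chromosome 15 from 93500001 to 94000000, its share was 60.4% in ESC (56.9 to 63.8, 766 pairs) and 71.8% in NCC (69.2 to 74.3, 1194 pairs; adjusted p = 0.00028, Fisher's exact test), and its eigenvector went from -0.20 to 0.79. The share of the Zfp703 bin was 62.8% in ESC and 71.7% in NCC (adjusted p = 0.018, Fisher's exact test), that of the Gas1 bin 63.0% and 70.9% (0.041) and that of the Tgfb2 bin 62.2% and 70.0% (0.033). The bin of Gata6 went from 62.4% to 71.9% (adjusted p = 0.047, Fisher's exact test). The Fbn2 bin, at 59.4% and 68.3%, did not pass Fisher's exact test after adjustment (adjusted p = 0.078), nor did the Sox21 bin, at 68.3% and 70.2% (0.81).

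Of the 56 bins with a higher trans A share, 26 had stayed on side B and 12 had gone from B to A. Another 8 had stayed on A and 10 had no stable sign. These classes held 44.5%, 2.11%, 35.2% and 17.0% of all placed bins, so bins that stayed on B were near their share. The largest gain was on chromosome 6 from 17000001 to 17500000, which holds Met, the receptor of hepatocyte growth factor, with Tes and the caveolin genes Cav1 and Cav2. Its share rose from 49.5% (283 pairs) to 67.0% (637 pairs; adjusted p = 0.00055, Fisher's exact test), while its eigenvector went from -0.51 to -0.14. The bin with the smallest adjusted p, on chromosome 2 from 3500001 to 4000000, holds Fam107b, Hspa14, Cdnf and Gm45902, and rose from 53.2% to 68.3%. Among the others were the bins of Dkk2, a Wnt antagonist (52.8% to 67.1%), Nrp1, a semaphorin co-receptor (51.5% to 61.9%), and Foxa2, a factor of endoderm and floor plate (49.4% to 61.2%). The bins named here, in the next paragraph and for Prickle1 were picked after their values were seen. Coverage, described below, was at least 1.2-fold higher in NCC in 22 of the 56 bins and at least 1.2-fold lower in 3. Of all placed bins, 13.1% were higher and 15.4% lower. The Met bin was among the 22, with a coverage log2 ratio of 1.14. The Sema3c bin was among the 3: its share rose from 53.1% to 68.5% while its coverage fell, at -0.80 on the log2 scale.

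The 19 bins with a lower share held 164 gene starts, and 12 of the 19 stayed on A, against 35.2% of all placed bins. Their median share was 78.7% in ESC and 73.8% in NCC. The bin of the homeobox genes Six3 and Six2 on chromosome 17 fell from 75.02% to 69.45% (adjusted p = 0.047, Fisher's exact test) and that of Chd9 and Gm19935 on chromosome 8 from 74.1% to 66.5% (0.035). Measured against the median change of all bins instead of against 0, 40 bins were called higher and 30 lower.

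In the HiChIP libraries the A share of the B to A bins lay higher against other bins in NCC than in ESC. In FGFR1 HiChIP the A share over far cis pairs (2 Mb or more apart) and trans pairs together fell over all placed bins, from 60.0% to 55.7%, whereas in the 84 B to A bins it was 55.9% in ESC (95% Wilson interval 55.1 to 56.6, 17478 pairs) and 56.7% in NCC (56.1 to 57.3, 24596 pairs). Of these 84 bins, 65 lay above the median change of all bins. In the 49 A to B bins the share was 58.2% (57.3 to 59.2) and 51.8% (51.0 to 52.7), and 37 lay below the median change. In CTCF HiChIP the B to A bins went from 58.0% (56.9 to 59.2) to 59.1% (58.0 to 60.2), with 55 of 84 above the median change, and the A to B bins from 59.5% (58.0 to 61.0) to 55.2% (53.7 to 56.7), with 30 of 49 below it. By construction equal numbers of all placed bins lie above and below that median. Of bins that stayed on A, 64.9% (FGFR1) and 60.9% (CTCF) lay below it, against 75.5% and 61.2% of A to B bins. Of bins that stayed on B, 60.5% (FGFR1) and 58.2% (CTCF) lay above it, against 77.4% and 65.5% of B to A bins. Relative to all bins that stayed, A and B pooled, the FGFR1 share of B to A bins changed by 5.51 percentage points. That of A to B bins changed by -1.71 points. By itself the pooled share changed by -4.75 points in bins that stayed on A and -1.59 in bins that stayed on B. It changed by 0.84 in B to A bins and -6.39 in A to B bins. With trans pairs alone the FGFR1 share of B to A bins was 60.8% in ESC and 59.8% in NCC, a smaller fall than the 63.8% to 59.6% of all placed bins, so the gain rested on the far cis pairs (51.8% to 53.7%).

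The checkerboard itself was weaker in NCC. Its strength is the mean of observed over expected contacts for A-A and B-B pairs of bins divided by that for A-B pairs, over the fifth of bins of highest and the fifth of lowest eigenvector, where expected is the mean at the same distance on the chromosome. In cis from 2 Mb it was 3.24 in ESC and 2.89 in NCC, a log2 ratio of -0.17. The A-B contacts were higher in NCC (0.530 against 0.481 of expected), A-A contacts were 1.79 in NCC against 1.83 in ESC, and B-B contacts 1.28 against 1.29. A whole library read with its own eigenvector partly fits its own noise, so each subset was also read with the eigenvector of the other subset. That gave 2.76 and 2.79 in ESC and 2.52 and 2.57 in NCC, which do not overlap.

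**Figure D4:**
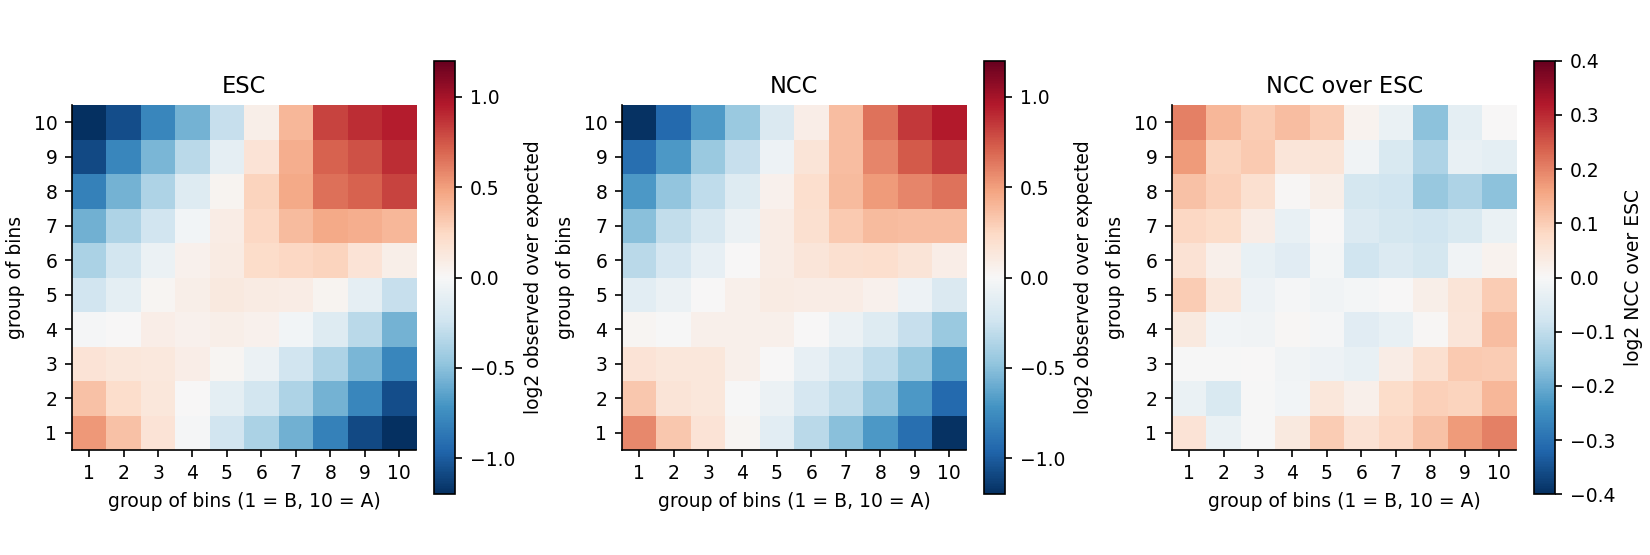
Mean observed over expected contacts (log2 colour scale) between 10 equal groups of bins ordered from the lowest (1, B) to the highest eigenvector (10, A) in cis from 2 Mb, in ESC, in NCC and as the ratio of NCC over ESC. Corner values for the lowest with the highest group are 0.383 of expected in ESC and 0.440 in NCC, whereas the A corner is 1.93 in both.

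Each library read with its own eigenvector differed more at longer distance. Strength at 2 to 10 Mb was 2.33 in ESC and 2.24 in NCC (log2 ratio -0.057), at 10 to 50 Mb 3.15 and 2.78 (-0.18), and at 50 Mb or more 4.17 and 3.48 (-0.26). With the subsets read crosswise, the values at 10 to 50 Mb were 2.86 and 2.92 in ESC and 2.56 in both NCC subsets, and at 50 Mb or more they were 3.09 and 3.09 in ESC and 2.76 and 2.87 in NCC. Read this way, NCC was lower at both distances, but the difference was no larger at 50 Mb or more. Pairs at this distance were also those whose number differed most between the libraries, and the part of that in the result was not tested. In trans there is no distance, so expected was taken from the trans totals of the bins, without balancing. Trans strengths are therefore not on the same scale as those in cis. In trans, strength was 2.06 in ESC and 1.99 in NCC (log2 ratio -0.054), with 2.05 and 2.07 in the ESC subsets and 1.99 and 1.99 in the NCC subsets.

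By chromosome, 18 of 19 had a lower strength in NCC, and the median difference was -0.16 on the log2 scale. The largest fall was on chromosome 2, from 4.79 to 3.61 (log2 ratio -0.41), followed by chromosome 7 (4.23 to 3.21) and chromosome 15 (4.12 to 3.14). Chromosome 14 was the exception, at 2.15 in ESC and 2.65 in NCC (log2 ratio 0.30). Chromosomes 13 and 14 had the lowest strengths in ESC, and chromosome 13 also had the lowest agreement between cell types (r of 0.855) and between the ESC subsets (r of 0.762). Changed sides were most frequent on chromosomes 19 (7.77% of 103 bins) and 18 (7.01% of 157) and least on chromosome 4 (0.844% of 237).

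**Figure D5:**
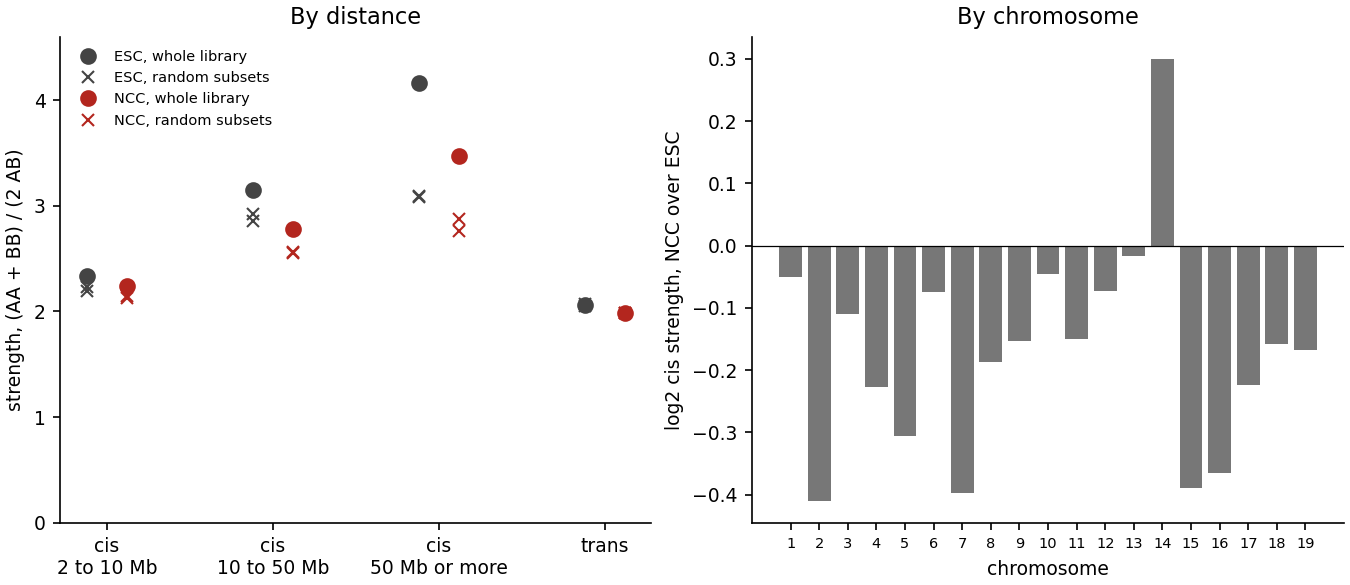
Left, compartment strength (y axis) by distance in cis and in trans for whole libraries read with their own eigenvector (circles) and for random subsets (crosses; in cis read with the eigenvector of the other subset); right, log2 ratio of cis strength of NCC over ESC for each chromosome. Strength is lower in NCC at each distance (2.24 against 2.33, 2.78 against 3.15 and 3.48 against 4.17) and on 18 of 19 chromosomes, with chromosome 14 at 0.30. Expected contacts are defined differently in cis and in trans, so their strengths are not on the same scale.

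Coverage, the number of read-pair ends in a bin after scaling both libraries to the same autosomal total, differed much more than side did. It was at least 1.2-fold higher in NCC in 521 bins (13.1%) and at least 1.2-fold lower in 612 (15.4%). The SD of the log2 ratio was 0.34 between the cell types and 0.046 and 0.048 between the subsets, in which 1 bin in ESC and 0 in NCC passed the fold. With 1 library per cell type there is no test of this. Most of these bins lay on side B throughout: 366 of the 521 and 437 of the 612 had stayed on B, against 44.5% of all placed bins. Of the 84 B to A bins 24 were higher and 5 lower in coverage, and of the 49 A to B bins 0 were higher and 14 lower.

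Of the 20 bins of largest coverage fold, 10 in each direction, 18 had stayed on B, 1 had gone from A to B and 1 had no stable sign. The largest gain was on chromosome 14 from 72000001 to 72500000 (Gm9195), with 730 ends in ESC and 3957 in NCC, a scaled fold of 5.29. The bin of Pcdh20, a protocadherin, had 841 and 2608 ends (3.03-fold), that of Lrfn5 760 and 2276 (2.92-fold, but a log2 ratio of -0.11 in its 1 Mb bin) and that of Gria2 and Glrb, which encode glutamate and glycine receptor subunits, 1318 and 3548 (2.63-fold). The largest loss, also on chromosome 14 (from 9000001), held no gene start and had 3426 and 734 ends. The bin of Cdh8, a neural cadherin, had 3924 and 1274 (0.317 of the ESC value), that of Nalcn, a sodium leak channel, with Itgbl1 4505 and 1427 (0.309), and that of the proneural gene Neurod4 with Tespa1 and the vomeronasal genes Vmn2r84, Vmn2r85 and Vmn2r87 4383 and 1384 (0.308).

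The authors called the anchors to which read pairs were assigned in each sample, and their number moved with coverage: the Spearman rho of the 2 log2 ratios was 0.560 over 3976 bins. The Gm9195 bin had 12 anchors in ESC and 51 in NCC, and the Cdh8 bin 53 and 29. With read pairs kept only where both anchors overlapped an anchor of the other library (81.5% of ESC and 81.8% of NCC anchors), 287 bins were higher and 378 lower and the SD was 0.20, still above that of the subsets. The coverage log2 ratio also had a Spearman rho of -0.26 with repeat content over 3976 bins. The parts of anchor calling and of repeat content in the coverage differences were not tested.

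Gene lists were described by where the starts of their members lay, beside 19283 placed protein-coding genes, of which 71.2% were on side A in ESC, 45.7% had a higher eigenvector in NCC, 252 went from A to B and 250 from B to A. Genes of a list often share a bin and are then 1 measurement. No member of the pluripotency list (34 placed in 31 bins) changed side by the rule. The eigenvector was higher in NCC for 10 of the 34, but for 20 with 1 Mb bins, so the list had no settled direction. Coverage passed the fold upward for 1 (2.94%, against 5.95% of all genes) and downward for 6 (17.6%, against 10.2%). Of all placed bins, 13.1% passed upward and 15.4% downward. Otx2, an early forebrain and epiblast factor, had the largest change: its eigenvector was 1.76 in ESC (subsets 1.92 and 1.61) and 0.52 in NCC (subsets 0.016 and 0.98), its trans A share 75.8% and 69.5% (adjusted p = 0.10, Fisher's exact test), and its coverage log2 ratio -0.58. Klf5, next in size, went up, from 0.43 (subsets -0.13 and 1.16) to 1.25, and the ESC subsets of its bin lay on different sides. The values of Pou5f1 (1.42 and 1.59), Esrrb (1.68 in both), Nanog (0.34 and 0.52) and Sox2 (0.95 and 0.14) were positive in both whole libraries, although 1 ESC subset of the Nanog bin was at -0.034. These genes, Klf4 and Zfp42 were picked after their values were seen. Klf4 and Zfp42 lay on side B in both, at -0.88 and -0.89 and at -0.83 and -1.07.

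Of the retinoic acid response genes, 34 were placed in 33 bins. The eigenvector was higher in NCC for 25 of them (14 with scores of 2 or more only). Coverage was higher for 10 (29.4%), against 5.95% of all genes and 13.1% of all placed bins, and lower for 1. Among bins that stayed on B, 366 of 1768 were higher in coverage. Nrip1, a retinoid-induced nuclear receptor corepressor, went from -0.85 (subsets -0.90 and -0.67) to 0.10 (subsets 0.23 and -0.17), and its coverage log2 ratio was 0.56. Cyp26b1, which degrades retinoic acid, went from 0.25 (subsets -0.35 and 0.74) to 1.19 (subsets 1.22 and 1.09), with a coverage log2 ratio of 0.42. For the retinoic acid receptor gene Rarb the values were -0.92 and -0.036, with a coverage log2 ratio of 0.45, and for the retinaldehyde reductase gene Dhrs3 they were -1.05 and -0.49, with 2139 ends in ESC and 5254 in NCC. The Cyp26a1 and Cyp26c1 genes share a bin, which was on side A in both (0.87 and 1.19) with a coverage log2 ratio of 0.27. Of the 34 placed genes of the list, 3 lay in bins that passed the trans test, all upward, among them Gata6 and Rarres1. Of all 19283 placed genes, 179 lay in bins called higher, and 1.41% of all placed bins were called higher. The Rarres1 bin went against its eigenvector, which was -0.18 in ESC and -1.11 in NCC.

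The Hox and ParaHox genes were on side A before differentiation and stayed there: 43 of 44, in 7 bins, were on A in both cell types and 0 changed side. The eigenvector was higher in NCC for 41 of the 44. The HoxA bin went from 1.15 (subsets 1.12 and 1.38) to 1.54 (subsets 1.49 and 1.34), whose subsets overlap, the HoxB bin from 1.18 to 1.24, the HoxD bin from 0.56 to 0.84, and the bin of Hoxc4 from 1.16 to 1.15. No Hox or ParaHox gene lay in a bin that passed the coverage fold or the trans test.

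Of 43 placed neural induction genes, 1 changed side in each direction (Sox21 and Ncam1) and 22 had a higher eigenvector. Pax6 stayed on side B (-0.89 and -0.85) and Sox1 on side A (1.10 and 0.87). Zic1 went from -0.44 to -1.09 while its coverage log2 ratio was 0.69. The very long neural genes, adhesion and synaptic genes such as Ctnna2 and Robo2, lay on side B: 0 of 31 were on A in ESC and 1 in NCC. Ctnna2 went from -1.65 (subsets -1.78 and -1.43) to -0.73 (subsets -0.88 and -0.65) and Robo2 from -1.23 to -0.37, so both remained on B. Of 31 mesoderm and endoderm genes 0 changed side, and Foxa2 was the member in a bin with a higher trans A share. Twist1 went from -1.18 to -0.45 and Eomes from -0.53 to -1.20, each on B throughout. Housekeeping genes were on A in 39 of 40 cases in both cell types, and of these Rpsa had the largest change, from 0.70 to 1.205.

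Clustered families lay in few bins each. Genes named Zfp with a number, mostly zinc finger repressors, were placed for 353 members in 188 bins, of which 280 were on A in ESC and 247 in NCC. By the rule 25 (7.08%) went from A to B and 3 from B to A, but the 25 lay in 4 bins, 13 of them in 1 bin on chromosome 13, and the number ran from 2 to 30 over the other settings. Of olfactory receptor genes 383 of 1128 lay in bins that could not be placed, and of vomeronasal receptor genes 215 of 329. Coverage was lower by the fold for 329 of the 745 placed olfactory receptor genes (44.2%, in 92 bins), against 10.2% of all genes. It was lower for 54 of the 114 placed vomeronasal receptor genes (47.4%). On side A in ESC were 156 of the 745 and 37 of the 114. Counted by bin, lower coverage was found in 15.4% of all placed bins and in 437 of the 1768 that stayed on B. Histone cluster genes (67 in 6 bins) were on A for 61 in ESC and for 67 in NCC, with a median eigenvector of 0.88 and 1.42. By the rule 0 of them changed side, and 37 of the 67 had a higher eigenvector in NCC. With 6 bins, such a median rests on very few measurements. Keratin genes (53 in 6 bins) all had a higher eigenvector in NCC, with medians of 0.69 and 0.87, and 29 of 53 did without balancing of the matrix.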

How the data were processed

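The authors removed duplicate reads and kept valid pairs with HiC-Pro, assigned pairs to anchors with hichipper in each sample by itself, applied no q filter, and merged both biological replicates. The aligner and versions are not given in the sources used here. The build is mm10. The deposited score is a count of read pairs per pair of anchors. Per the authors' methods valid pairs were equalised between cell types for comparisons, and whether that was done before deposit is not stated. All of 20000 anchors looked at per Hi-C library began at GATC in GRCm38.

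Anchors were placed by midpoint in 500 kb bins of chromosomes 1 to 19. Bins with over 50% unknown bases, or under 25% of the chromosome's median far cis coverage in either library, were left out. Bin pairs fewer than 2 bins apart were left out. Matrices were balanced iteratively, divided by the mean at each distance and capped at percentile 99.9. Of the first 2 eigenvectors of the correlation matrix, the one with the higher absolute Spearman rho with protein-coding gene starts (GENCODE vM21) was taken. Coverage ratios used a pseudocount of 0.5. Python 3.11.15, numpy 2.4.6, scipy 1.17.1 and pandas 2.3.3 were used, and the steps were tested on simulated data. Sides, strength and coverage have no test. Trans shares were tested with Fisher's exact test. PCR reads without molecular identifiers are not independent molecules, so intervals cover counting error only.

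By rule the text names the 10 side-changing bins per direction of largest eigenvector change whose trans A share moved the same way, the 10 bins of largest coverage fold per direction, at most 5 genes a bin, members of the lists given by gene in side-changing bins (families defined by their symbol are counted) and the 2 members per list of largest change. Other genes were picked after their values were seen. The members and lists were chosen with earlier results of these data known.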

Additional observations from a re-analysis of the deposited data

How the results depend on the processing

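No paired analysis was possible because the deposited tables merge the replicates of each cell type, and for the same reason no replicate was left out. The direction of the strength difference in cis and in trans, and of the HiChIP shares of side-changing bins relative to bins that stayed, was the same under each alternative run for them. The HiChIP share itself in B to A bins rose with both kinds of pairs and fell with trans pairs alone. Calls of single side-changing bins depended on how the reads were divided and more on the processing: of the 49 and 84 bins, other divisions called 21 to 32 and 44 to 48 again, the eigenvector of observed over expected minus 1 13 and 26, no balancing 9 and 24, and 1 Mb bins 7 and 17.

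With 1 Mb bins, 28 bins went from A to B and 36 from B to A, the eigenvectors had an r of 0.936, the log2 ratio of trans strength was -0.088, 12 zinc finger genes went from A to B, 20 pluripotency genes had a higher eigenvector, and 201 bins were higher and 276 lower in coverage. The coverage log2 ratio of the Lrfn5 bin, on chromosome 12 from 61500001, was -0.11 there. Without balancing, 31 bins went from A to B, r was 0.930, the log2 ratios of strength were -0.11 in cis and -0.081 in trans, and 29 keratin genes had a higher eigenvector. With the eigenvector of observed over expected minus 1, these ratios were -0.26 and -0.083, and 2 zinc finger genes went from A to B. Without the anchors of highest strength, r was 0.924, the trans ratio -0.033, 8 zinc finger genes went from A to B and 7 bins had a lower trans A share. With bin pairs under 2 Mb left out the trans ratio was -0.073.

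With scores of 2 or more only, the map was no longer comparable: r was 0.0714, 163 bins went from A to B and 160 from B to A, the strength ratios were -0.14 and -0.029, and 14 Hox and ParaHox, 14 retinoic acid response and 34 keratin genes had a higher eigenvector. There the eigenvector change (NCC minus ESC) turned in 12 bins named in the report: from A to B, chromosome 16 (0.63), the Sp100 bin (1.06), Lrfn2 (0.70), Tle4 (0.057), Dner (0.90) and Epsti1 (0.57), and from B to A, chromosome 16 (-2.76), Nedd9 (-0.73), chromosome 13 from 31000001 (-0.24), Zfp703 (-0.12), Gas1 (-0.87) and Slc25a21 (-0.22). The cause was not tested.

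With partner bins from the ESC map alone, 35 bins had a higher and 33 a lower trans A share, and relative to the median change 30 were lower. The FGFR1 share of B to A bins relative to stayed bins, A and B pooled, was 3.59 points in trans alone and 6.89 in far cis alone. By itself the share of bins that stayed on B changed by -2.33 and -1.32 points there, and that of B to A bins by -0.97 and 1.96. At a fold of 1.5, coverage was higher in 134 bins and lower in 210.

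Other alternatives were chosen after seeing the data. With a lower coverage limit, the trans strength ratio was -0.025 and 9 zinc finger genes went from A to B, and 11 did with NCC thinned to the ESC depth. With the mean eigenvector of both cell types the strength ratios were -0.23 in cis and -0.10 in trans, and with the eigenvector of the other random subset -0.12 in cis. With anchors found in both libraries 287 bins were higher and 378 lower in coverage, and with all bins of at least 100 ends 798 and 1032.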
